A study of Homo sapiens with 4 samples.

Results

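The regions described here are 2003 peaks of open chromatin outside promoters that were called in both of the deposited peak tables. They were selected on the peak calls themselves: a peak of the first table was a member when its deposited annotation was not a promoter class and when it overlapped a peak of the second table by at least 50% of the length of each. They are 2003 of the 20556 peaks of the first table, and 22.8% of its 8769 non-promoter peaks, while 71.8% of its 11787 promoter peaks met the same overlap. The second table holds 13577 peaks. ATAC-seq, which uses a transposase to insert sequencing adapters into open DNA, was run on Kasumi-1 cells, a human line of acute myeloid leukaemia with the t(8;21) translocation. The 4 libraries formed 2 groups of 2: control cells labelled sgNT with a wild-type genotype, and cells in which CRISPR/Cas9 was directed at SETD8, the gene now named KMT5A. No drug, time point or further allele is named for either group, and the labels do not say whether the knockout cells were a pool or a clone, or whether libraries of a group came from separate cultures. The second table set the replicate 2 knockout library against the replicate 2 control, while the libraries behind the first table are not named, so the tables may share libraries.

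SETD8 is the methyltransferase that places a single methyl group on lysine 20 of histone H4, a mark tied to chromatin compaction, replication and mitosis. Open chromatin away from promoters often marks enhancers, short regions where transcription factors bind and act on genes that can lie far away. In haematopoietic cells such regions are commonly bound by RUNX, ETS, AP-1, GATA and E-box-binding factors, and the fusion protein of this leukaemia keeps the DNA-binding domain of RUNX1. The nearest gene of an intergenic or intronic peak need not be the gene it acts on, so each gene name below is an address rather than a target.

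The sequence inside a member was available where a gene start of RefSeq (GRCh38.p14) fell in it. In all, 71 RefSeq start windows, each running from 250 bases before to 50 bases after a gene start, lay within 66 members, although the deposited annotation calls these peaks intronic, exonic, untranslated or intergenic. Of these starts, 14 belonged to protein-coding genes and 57 to long non-coding RNAs. The 8 windows printed here show what such starts look like and hold the motifs counted below. They were chosen after their values were seen. Each is written 5′ to 3′ on the strand of its gene, in lower case, with these motifs in capitals on either strand: TGTGGT as the core of RUNX sites, CCGGAA as a core of ETS sites, TGANTCA as the AP-1 site, AGATAA as a site of GATA-family factors and CACGTG as an E-box. The GC box GGGCGG was counted but left in lower case.
PPARGC1A: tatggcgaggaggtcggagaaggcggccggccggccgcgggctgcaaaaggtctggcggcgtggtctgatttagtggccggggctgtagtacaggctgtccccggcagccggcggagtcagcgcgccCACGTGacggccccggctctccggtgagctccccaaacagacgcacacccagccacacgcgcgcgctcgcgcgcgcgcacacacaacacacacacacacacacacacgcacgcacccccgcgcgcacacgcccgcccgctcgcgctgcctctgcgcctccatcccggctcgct
TET1: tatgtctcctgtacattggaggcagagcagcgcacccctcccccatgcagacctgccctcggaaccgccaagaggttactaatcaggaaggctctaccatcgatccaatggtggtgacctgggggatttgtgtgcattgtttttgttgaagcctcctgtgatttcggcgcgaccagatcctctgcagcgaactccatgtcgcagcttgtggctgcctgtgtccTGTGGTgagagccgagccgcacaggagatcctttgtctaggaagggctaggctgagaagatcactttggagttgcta
ZSCAN12: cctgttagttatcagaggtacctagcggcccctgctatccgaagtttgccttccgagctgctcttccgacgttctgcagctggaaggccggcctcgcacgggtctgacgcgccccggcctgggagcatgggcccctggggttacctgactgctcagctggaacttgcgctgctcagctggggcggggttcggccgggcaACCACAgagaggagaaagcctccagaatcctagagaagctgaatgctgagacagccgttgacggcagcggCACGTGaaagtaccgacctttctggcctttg
BCLAF3: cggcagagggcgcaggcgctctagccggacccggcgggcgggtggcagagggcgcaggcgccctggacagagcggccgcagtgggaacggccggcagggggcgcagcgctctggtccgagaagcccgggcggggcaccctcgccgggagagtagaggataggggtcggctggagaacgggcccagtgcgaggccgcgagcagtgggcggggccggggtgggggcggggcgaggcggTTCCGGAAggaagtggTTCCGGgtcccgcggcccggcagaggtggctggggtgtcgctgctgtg
PRRC2B: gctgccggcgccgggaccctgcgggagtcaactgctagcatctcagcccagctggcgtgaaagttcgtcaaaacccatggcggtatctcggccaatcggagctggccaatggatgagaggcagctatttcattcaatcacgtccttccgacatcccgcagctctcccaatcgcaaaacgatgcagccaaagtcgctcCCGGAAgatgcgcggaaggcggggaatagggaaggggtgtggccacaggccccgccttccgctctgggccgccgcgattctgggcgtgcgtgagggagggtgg
MAST3: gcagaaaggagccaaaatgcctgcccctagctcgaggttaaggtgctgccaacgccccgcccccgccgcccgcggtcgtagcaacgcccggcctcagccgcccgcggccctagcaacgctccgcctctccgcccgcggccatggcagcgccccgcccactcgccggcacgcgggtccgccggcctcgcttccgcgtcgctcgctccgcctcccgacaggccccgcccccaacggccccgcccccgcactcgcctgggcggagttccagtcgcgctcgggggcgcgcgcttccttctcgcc
MIRLET7A1HG: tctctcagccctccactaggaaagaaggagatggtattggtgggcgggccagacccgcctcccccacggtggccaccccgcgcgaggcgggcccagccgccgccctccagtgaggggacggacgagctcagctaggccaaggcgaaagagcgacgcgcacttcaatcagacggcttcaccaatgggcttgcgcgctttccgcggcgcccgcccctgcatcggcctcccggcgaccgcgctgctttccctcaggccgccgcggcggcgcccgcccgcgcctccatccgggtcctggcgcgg
LINC03108: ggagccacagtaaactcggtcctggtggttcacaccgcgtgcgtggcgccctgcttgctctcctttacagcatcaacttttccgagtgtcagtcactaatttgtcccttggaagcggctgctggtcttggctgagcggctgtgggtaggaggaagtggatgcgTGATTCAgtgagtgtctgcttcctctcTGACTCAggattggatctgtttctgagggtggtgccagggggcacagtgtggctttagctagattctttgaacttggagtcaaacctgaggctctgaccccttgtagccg
The PPARGC1A window (chr4:24472856-24473155, minus strand) holds 1 E-box, and the TET1 window (chr10:68600224-68600523, plus strand) holds 1 RUNX core. The ZSCAN12 window (chr6:28383390-28383689, minus strand) holds 1 RUNX core and 1 E-box, and the BCLAF3 window (chrX:19991012-19991311, minus strand) holds 3 ETS cores, of which 1 pair overlaps, and 4 GC boxes. The PRRC2B window (chr9:131373401-131373700, plus strand) holds 1 ETS core, and the LINC03108 window (chr1:234980727-234981026, minus strand) holds 2 AP-1 motifs. Neither the MAST3 window (chr19:18117737-18118036, plus strand), with 8 GC boxes, nor the MIRLET7A1HG window (chr9:94166008-94166307, plus strand), with 4, holds any of the capitalised motifs.

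PPARGC1A encodes a coactivator of mitochondrial biogenesis. The start in this window is not the PPARGC1A start used by the authors, which lay 41288 bp from the member at chr4:23945377-23946160. The member holding the printed window was assigned by the authors to the microRNA gene MIR573, 46890 bp away. In the second table that member had 187 knockout reads and 407 normalised control reads, and its log2 fold changes in the authors' deposited tables were -1.33 in the first and -1.12 in the second. TET1 encodes an enzyme that oxidises 5-methylcytosine, and its window lies in a member called intronic. The authors placed that member 39748 bp from the TET1 start they used, so the printed start is a different one. It had 137 knockout reads, 331 normalised control reads and log2 fold changes of -1.28 and -1.27 in the authors' deposited tables. The most accessible of the printed examples was the start of MIRLET7A1HG, the host RNA of let-7 microRNAs, with 410 knockout reads and 1201 normalised control reads, and with log2 fold changes of -1.31 and -1.55 in the authors' deposited tables. The member with the MAST3 start had the smallest decreases among the printed coding starts, -0.29 and -0.89 in the authors' deposited tables, from 164 knockout reads and 302 normalised control reads. All 8 printed starts were lower in the knockout in both tables, as were most peaks of any kind: 18979 of 20556 (first table) and 13393 of 13577 (second table).

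Across the 71 windows, the RUNX core was in 18.3% against 13.1% of all 35116 RefSeq start windows of that length, and the ETS core in 23.9% against 17.2%. AP-1 was in 19.7% against 7.71%, and the E-box in 15.5% against 7.26%. The GATA motif was in 8.45% against 10.3%, and the GC box in 54.9% against 45.0%. Some of the 71 windows shared sequence, which was then counted more than once. SEMA3B and LINC03143 had the same window, and the PPARGC1A window overlapped that of LOC124900681, with the same E-box in both. These shares are descriptions of letters, not of binding sites. Median GC content was 63.0% in the member windows and 58.7% in all windows. Members with a start window had a median log2 fold change of -0.98 in the first of the authors' deposited tables and -1.28 in the second. As a check of coordinates, 6368 of 7863 promoter peaks lying on a start in the first table, or 81.0%, overlapped the RefSeq window of their own gene.

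Most members were annotated as intronic or distal intergenic. Introns held 865 members (43.2%), of which 361 were in first introns and 504 in later ones, and 765 (38.2%) were distal intergenic. A further 248 were in exons, 85 in 3′ UTRs, 33 just downstream of genes and 7 in 5′ UTRs. The share of a class that met the overlap ranged from 18.4% of 5′ UTR peaks, 20.2% of intronic and 23.2% of distal intergenic peaks to 33.6% of exonic peaks. Members lay a median of 15462 bp from the nearest start (quartiles 7694 and 33098 bp). Their median width was 576 bp in the first table and 663 bp in the second.

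Because a peak had to be called in both tables, members were the stronger non-promoter peaks. When all non-promoter peaks of the first table were put in 10 equal bins by level, the share that were members went from 1.48% in the lowest bin to 68.8% in the highest. The median member had 156 normalised reads as the mean level of the first table, and 78.2 knockout and 194 normalised control reads in the second. The 65 members less than 5 percentage points above the overlap limit had median log2 fold changes of -0.89 and -1.23 in the authors' deposited tables, first and second. The 51 non-promoter peaks less than 5 points under it had -0.68 and -1.16 in the authors' deposited tables.

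Nearly all members were less accessible in the knockout as deposited. In the first of the authors' deposited tables, 1925 members had a negative log2 fold change and 76 a positive one, with a median of -0.93 (quartiles -1.23 and -0.62). In the second of the authors' deposited tables, 1999 were negative and 4 positive, with a median of -1.30 (quartiles -1.53 and -1.03). These decreases were shared by the whole tables: the median of all peaks was -0.87 in the first of the authors' deposited tables and -1.23 in the second, and promoters found in both had -0.94 and -1.26. In the second table the knockout library had about 39.1% as many unscaled reads in peaks as the control library. No source used here states how the authors scaled the libraries. The part of depth and scaling in the shared decrease was not tested.

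A decrease of at least 1 on the log2 scale was seen in 895 members (44.7%) of the first of the authors' deposited tables, where 38.9% of all peaks had one. In the second of the authors' deposited tables it was seen in 1558 members (77.8%), against 76.1% of all peaks. An increase of at least 1 was seen in 3 members of the first of the authors' deposited tables, against 0.511% of all peaks, and in 0 members of the second, against 0.133%. No member had an adjusted p under 0.05 in the authors' deposited tables, where the share over all peaks was 0% in the first and 0% in the second, and the lowest values among members were 0.731 and 0.578. An unadjusted p under 0.05 was given for 21 members in the first of the authors' deposited tables, against 1.6% of its peaks, and for 0 members in the second, against 0.14%. No member therefore passed the authors' test, and the second table has 1 library a group, so what follows describes sizes in these libraries.

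The 3 members past an increase of 1 were named after their values were seen: they lie in an intron of LIN28A, which encodes a let-7-binding protein, and near KCTD17 and MIR650. Their log2 fold changes in the first of the authors' deposited tables were 1.25, 1.19 and 1.17, at mean levels of 37.8, 36.8 and 40.5 normalised reads, and in the second they were negative, at -0.96, -0.45 and -0.79. The 4 positive members of the second table, also named after their values were seen, lie in introns of CDH23, ZCCHC2 and FNDC3B and nearest to SLC27A2. Their log2 fold changes in the second of the authors' deposited tables were 0.37, 0.24, 0.03 and 0.01, from 94, 40, 62 and 47 knockout reads, and in the first they were -0.44, -0.81, -0.79 and -0.01. None of these 7 members was higher in the knockout in both tables.

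To see members relative to the shared shift, the median of all peaks of a table was subtracted from each log2 fold change of that table, and the result is called the difference from the table median. On this scale 702 members (35.0%) lay below the median of both tables, against 34.3% of all peaks found in both, and 448 (22.4%) lay above both, against 21.1%. The members' shares were near those of all shared peaks. Centred on the median of the shared peaks in place of all peaks, 581 lay below both and 549 above both, and as deposited 1921 were below 0 in both and 0 above. A further 388 lay below in the first and above in the second, and 415 the other way round. Counting error alone gave the median member a 95% half-width of 0.38 on the log2 scale in the second table. There, 379 members (18.9%) lay below the median by more than their own half-width, against 16.6% of all peaks, and 260 (13.0%) above it, against 17.4%. Intervals of this kind cover counting error only.

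**Figure D1:**
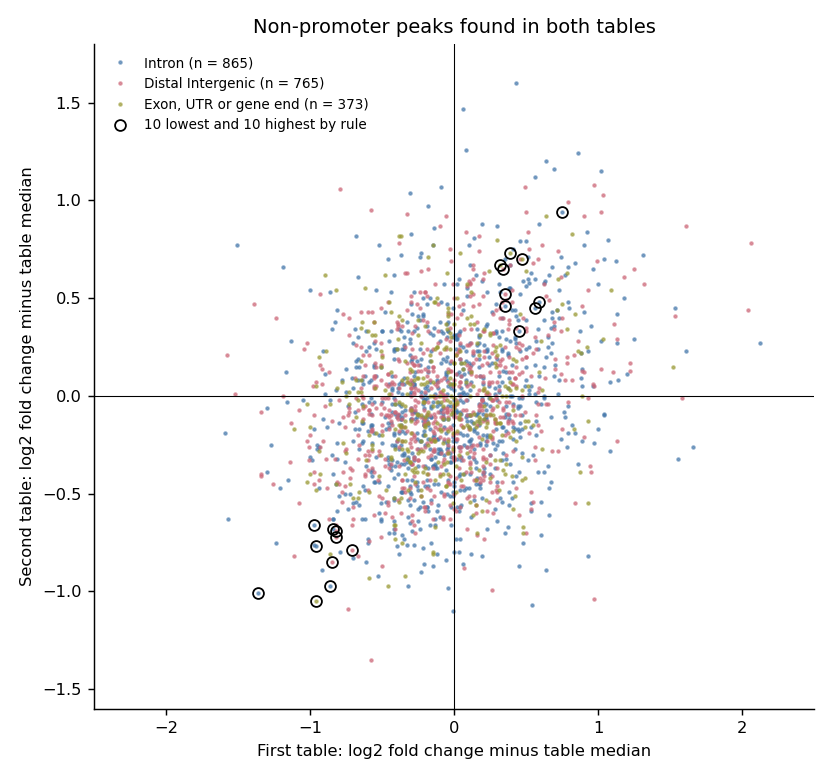
Each point is 1 of the 2003 members, placed by its log2 fold change minus the table median in the first (x) and second (y) table and coloured by annotation class; circles mark the 10 lowest and 10 highest members of the rule for named genes. Most points lie within 1 unit of 0 on both axes, with 702 members below 0 on both and 448 above 0 on both, and the classes overlap throughout.

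The size of the decrease differed with how accessible a peak was. Among members with a mean level under 6.5 on the log2 scale the median was -0.67 in the first of the authors' deposited tables and -1.06 in the second. Among those from 8 to 8.5 it was -0.97 and -1.40 in the authors' deposited tables, and among the strongest, at 8.5 and over, -1.01 and -1.33. Promoters found in both tables had -0.67 and -0.98 at the same levels in the first of the authors' deposited tables, and -1.08 and -1.27 in the second. With the level trend removed, the members' median difference was -0.02 (first table) and -0.10 (second table), beside 0.01 and 0.00 for the shared promoters. At matched level the members' median thus lay under that of promoters in the second table, while in the first table the medians were close. The non-promoter peaks that were not shared had a weaker median log2 fold change of -0.70 in the first of the authors' deposited tables, at a lower median level of 6.09 against 7.29 for members.

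**Figure D2:**
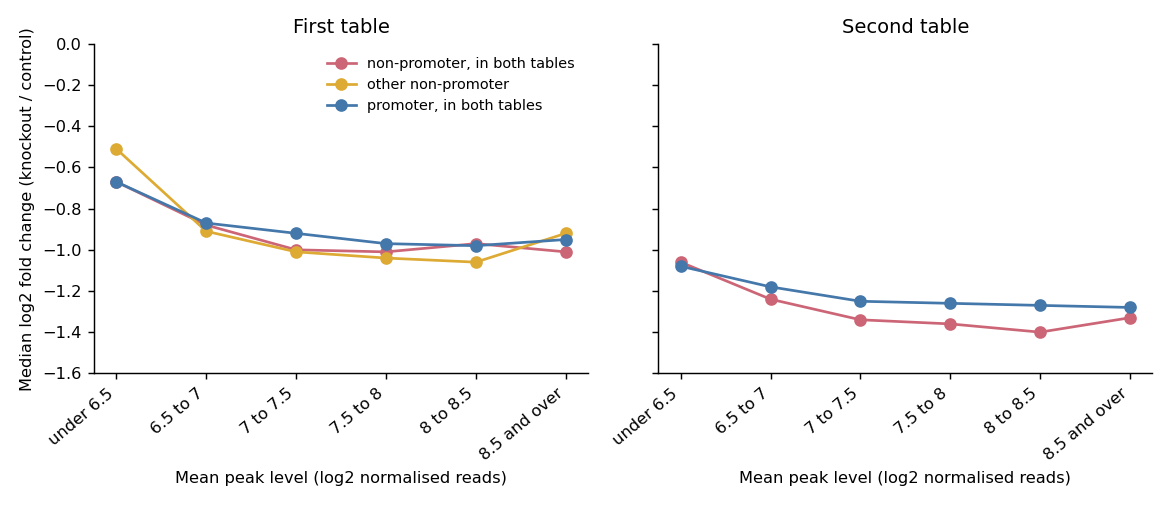
Median log2 fold change (y, knockout over control, as deposited) by bin of mean peak level (x, log2 normalised reads) in the first table (left) and second table (right), for members, other non-promoter peaks and promoters found in both tables. Members went from -0.67 in the weakest bin to about -1 in the first table; in the second they went from -1.06 to -1.40 at 8 to 8.5, with -1.33 in the strongest bin.

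Position along the genome was a further axis on which members differed. The 281 members of chromosomes 2, 9 and 17 had median log2 fold changes of -1.15 and -1.51 in the authors' deposited tables, first and second, and 61.2% of them lay below the median of both. Chromosome 9, with 53 members, stood lowest in the first table, at -0.41 from the median, and chromosome 17 lowest in the second, at -0.35. The 105 members of chromosome 8 lay above, at 0.09 and 0.18, with 42.9% above both medians. Chromosome 13, with 34 members, also lay below, at -0.20 and -0.22, with 47.1% below both, while all its peaks were at -0.06 and -0.01. Chromosome 21, with 26 members, was at 0.28 in the first table and at -0.10 in the second, where all its peaks were at 0.24 in each. When the median of the other peaks in the same 5 Mb stretch was subtracted, members of chromosomes 2, 9 and 17 stood at -0.05 and -0.01. On those 3 chromosomes the other peaks of the same stretches thus had a like shift. The source of these regional shifts was not tested.

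**Figure D3:**
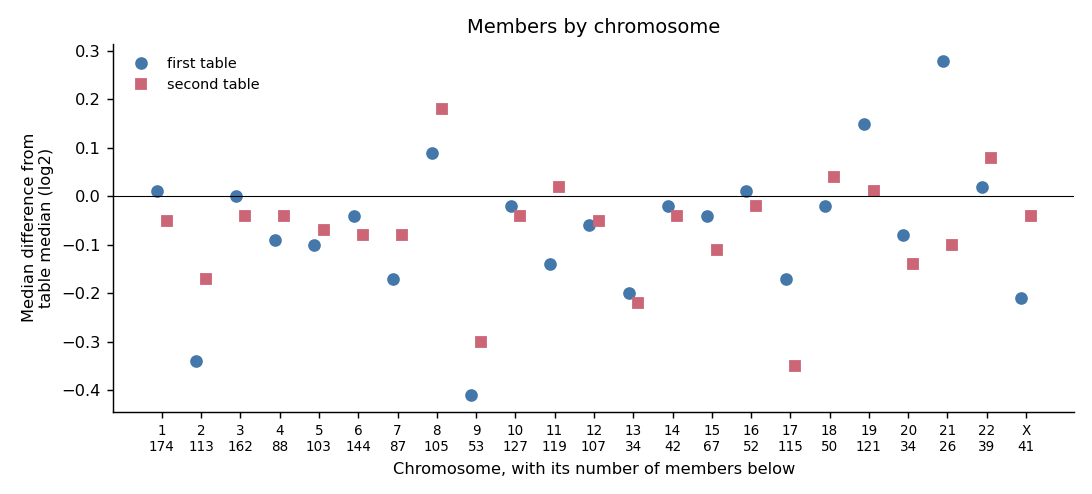
Median difference of members from the table median (y, log2) for each chromosome (x, with its number of members), circles for the first table and squares for the second. Chromosomes 2, 9 and 17 lie below 0 in both tables and chromosome 8 above 0 in both, while chromosome 21 lies on opposite sides.

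Among well-covered members, those furthest below both medians were led by 1 in an intron of PRKCA, which encodes protein kinase C alpha, nearest to PRKCA-AS1 (chr17:66493882-66494451). It had 51 knockout and 242 normalised control reads in the second table, and log2 fold changes of -2.23 and -2.24 in the authors' deposited tables, with unadjusted p of 0.0465 and 0.0967 there. The exonic member nearest SERTAD2, a transcriptional coregulator (chr2:64644144-64645183), had 71 and 345 reads and log2 fold changes of -1.83 and -2.28 in the authors' deposited tables. A member in an intron of RPTOR, the scaffold subunit of the mTORC1 kinase complex, nearest LOC101928855 (chr17:80832904-80833503), had 95 and 437 reads and log2 fold changes of -1.73 and -2.20 in the authors' deposited tables. In each of these members the control library had over 4 times the normalised reads of the knockout library. The other low members were nearest DTNB, ARAP1, KLF9, LINC03066, BATF3, LPIN1 and CAMSAP1. Their differences from the table median lay between -0.97 and -0.71 in the first table and between -0.85 and -0.66 in the second. DTNB, SERTAD2 and LPIN1 lie on chromosome 2, KLF9 and CAMSAP1 on 9, and PRKCA-AS1 and LOC101928855 on 17, so 7 of the 10 were on chromosomes 2, 9 and 17. With the 5 Mb median removed, all of these 7 with a value stayed below 0, but KLF9 went from -0.82 to -0.30, LPIN1 from -0.84 to -0.51 and LOC101928855 from -0.86 to -0.54 in the first table. In the second table PRKCA-AS1 went from -1.01 to -0.62 and LPIN1 from -0.68 to -0.44. The members near ARAP1, LINC03066 and BATF3 were on other chromosomes, and after the same step they were at -0.98, -0.68 and -0.74 in the first table and at -0.87, -0.88 and -0.69 in the second.

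At the other end, the highest well-covered member lay in an intron of CROCCP2 (chr1:16620945-16621320), with 176 knockout and 215 normalised control reads and log2 fold changes of -0.12 and -0.29 in the authors' deposited tables. CROCCP2 is a pseudogene of the rootletin gene CROCC, so reads could be shared between copies and its value is uncertain. The member in the 3′ UTR of RTN4RL2, a receptor of the Nogo receptor family (chr11:57476249-57477083), had 151 and 218 reads and log2 fold changes of -0.40 and -0.53 in the authors' deposited tables. The exonic member nearest STIM2, a calcium sensor of the endoplasmic reticulum (chr4:26873263-26874051), had 121 and 171 reads and log2 fold changes of -0.48 and -0.50 in the authors' deposited tables. The remaining 7 were nearest RBPMS, TRAPPC9, MIR135A1, FMNL3, PLXNA1, WDTC1 and GPT2, with differences from the table median of 0.32 to 0.59 in the first table and 0.33 to 0.67 in the second. On removing the 5 Mb median, TRAPPC9 went from 0.56 to 0.11 and STIM2 from 0.39 to 0.24 in the first table. All 10 still had fewer reads in the knockout than in the control library. Over all peaks the knockout library had about 39.1% as many unscaled reads as the control. The control reads given above are scaled by 0.918, so that share is not on their scale. Whether these 10 rose or fell beyond library depth and scaling was not tested.

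**Figure D4:**
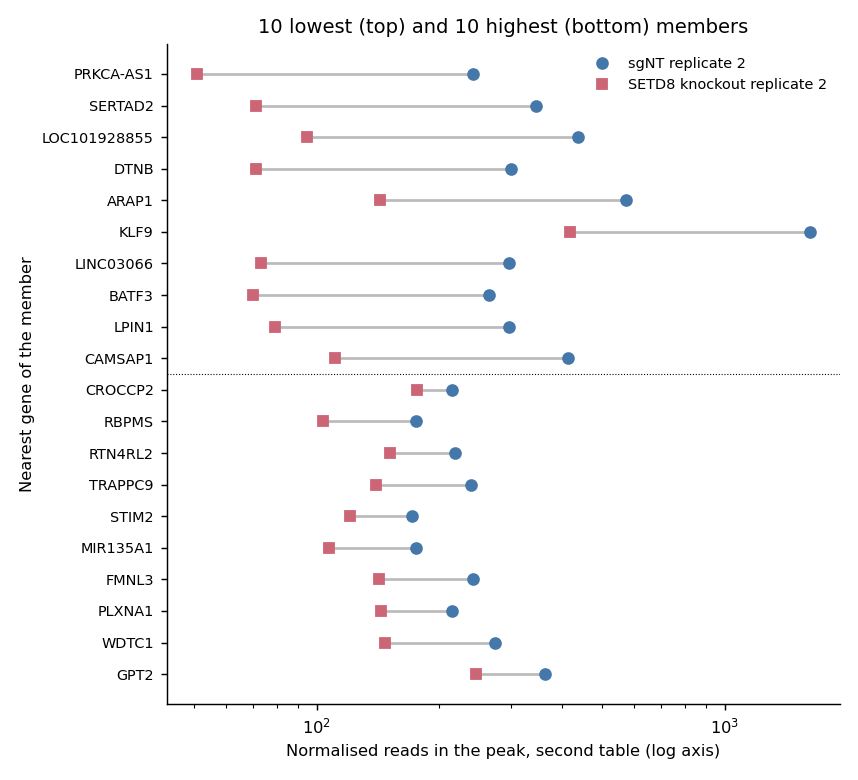
Normalised reads (x, log axis) of the 10 lowest and 10 highest members in the SETD8 knockout (squares) and sgNT (circles) libraries of replicate 2, with the nearest gene on the y axis. The gap is wide for the low members, such as 51 against 242 at PRKCA-AS1, and narrow for the high ones, such as 176 against 215 at CROCCP2.

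Members at least 0.5 beyond the median in both tables were few: 57 (2.85%) below, against 1.92% of all shared peaks, and 60 (3.00%) above, against 1.05%. Of the 57, 30 lay on chromosomes 2, 9 and 17, which held 14.0% of all members. Of the 60, 10 lay on chromosome 8, which held 5.2% of all members, and 2 on chromosomes 2, 9 and 17. The 60 were weak peaks, with median levels of 6.24 and 6.36 in the first and second table on the log2 scale, where counting error is larger. The part of low level in their number was not tested.

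The 6 most accessible members did not share a direction relative to the rest. The member nearest KLF9, a zinc finger transcription factor, and that nearest GNGT2, a G protein gamma subunit, lay below both medians, at -0.82 and -0.72 for KLF9 and -0.70 and -0.57 for GNGT2. Their reads in the second table were 419 against 1618 and 410 against 1428. A member nearest TRAPPC9 and one in an exon of LMTK3 lay above both, at 0.40 and 0.12 and at 0.37 and 0.04. With the 5 Mb median removed, TRAPPC9 stood at 0.06 and -0.27, LMTK3 at 0.12 and 0.03, GNGT2 at -0.42 and -0.19, and KLF9 at -0.30 in the first table, so TRAPPC9 changed side in the second. Those nearest REEP3 and CD248 were within 0.15 of the median in both tables.

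The tables also differed at single members with good coverage. The member nearest BOLA3, an iron-sulphur cluster assembly factor, had a log2 fold change of -2.39 in the first of the authors' deposited tables and -1.22 in the second. For the members nearest ETF1, the translation release factor, and in an exon of CCDC88C the differences from the median were -1.02 and 0.27, and -0.38 and 0.82. In the opposite sense, the member in an intron of VMP1, an autophagy protein, had -0.33 in the first of the authors' deposited tables and -2.30 in the second, from 73 knockout and 360 normalised control reads. Its second-table difference went from -1.07 to -0.66 with the 5 Mb median removed. Members in introns of LINC01088 and PIP5K1C, a phosphoinositide kinase, were 0.60 and 0.66 above the median in the first table and at -0.71 and -0.61 in the second. Which libraries made the first table is not stated, so these gaps cannot be placed between replicates.

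The members were spread over 1731 nearest genes, of which 1514 had 1 member, 177 had 2, 28 had 3, 10 had 4 and 2 had 5. RPTOR, on chromosome 17, had 5 members over 306769 bp, of which 4 lay below both medians, with differences of -0.84 to 0.86 in the first table and -0.93 to -0.35 in the second. With the 5 Mb median removed, these 5 lay between -0.52 and 1.20 (first table) and between -0.62 and -0.04 (second table). DENND3, on chromosome 8, had 5 members over 66043 bp, and all 5 lay above both medians, at 0.49 to 1.25 and at 0.07 to 1.07. After removal of the 5 Mb median they lay at 0.15 to 0.91 and at -0.32 to 0.70, and 2 of the 5 were below 0 in the second table. In the second table the weakest decrease among them was the member at chr8:141095405-141095787, with 115 knockout and 129 normalised control reads and log2 fold changes of -0.38 and -0.16 in the authors' deposited tables. Members of 1 gene share their surroundings and are not independent.

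Among regulators of this leukaemia, KIT, the receptor of stem cell factor, had 4 members over 135913 bp. The strongest, in an intron (chr4:54687589-54688638), had 388 knockout and 976 normalised control reads and log2 fold changes of -0.82 and -1.32 in the authors' deposited tables. The other 3 lay above both medians, at 0.01 to 0.56 in the first table and 0.30 to 0.32 in the second, but at -0.01 to 0.01 in the second once the 5 Mb median was removed. RUNX1, whose product binds DNA in the fusion, had 3 members. They had 112, 49 and 43 knockout reads against 333, 185 and 139 normalised control reads, and log2 fold changes of -1.57, -1.91 and -1.70 in the second of the authors' deposited tables. In the first of the authors' deposited tables the same 3 stood at -1.63, -1.11 and -0.21, so all were below the median in the second table and 2 in the first. KMT5A, the knocked-out gene, and RUNX1T1, the fusion partner, had 0 members each. Loss of SETD8 was not tested here.

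Lists of genes by role were described by their members, beside the 35.0% of all members below both medians and the 22.4% above both. For stem and progenitor regulators, 6 of 25 genes had 8 members, 2 below both medians and 1 above, with median differences of 0.19 and -0.31 in the first and second table. The member nearest HHEX, a homeobox regulator of blood progenitors, had 109 knockout and 296 normalised control reads and differences of 0.90 and -0.21. For the list of t(8;21) leukaemia genes, CD34, KIT and UBASH3B had 9 members, of which 0 lay below both medians and 5 above. The median differences of that list were 0.05 and 0.11, and 0.15 and 0.0 once the 5 Mb median was removed. KIT had 4 of these 9 members. UBASH3B, a phosphatase that dampens receptor signalling, also had 4, with differences of -0.20 to 0.68 and -0.08 to 0.40. The myeloid differentiation list had only members near CSF1R, the receptor of a macrophage growth factor, and CEBPE, a granulocyte transcription factor, of which 1 lay below both medians. CSF1R had 69 and 229 reads and differences of -0.05 and -0.50.

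AP-1 and immediate early genes, which respond fast to signals, had 10 members near 7 of 26 genes, with 5 below both medians and 1 above, and median differences of -0.26 and -0.18. Both members near BATF3, an AP-1 partner needed for some dendritic cells, were below both, at -0.82 and -0.69 and at -0.59 and -0.20. Both members in an intron of FOSL2, which the rule for named genes did not pick, were below both as well, at -0.94 and -0.47 and at -0.21 and -0.15. They lie on chromosome 2. Once the 5 Mb median was removed, the former stood at -0.68 and -0.20, and the latter turned to 0.08 and 0.13. The 1 member above both medians was nearest EGR3, which the rule did not pick either. It stood at 0.44 and 0.39, or 0.43 and 0.24 with the 5 Mb median removed. The strong member nearest FOS had 147 knockout and 505 normalised control reads, and its differences were 0.15 and -0.56. The rule also picked NR4A1, at 0.47 and -0.17, ATF3, at 0.21 and -0.12, and IER2. Both members near IER2 were below the first-table median, at -0.30 and -0.56, and stood at -0.22 and 0.10 in the second table. Actin and small GTPase signalling had 6 members near 5 of 24 genes, 5 of them below both medians and 0 above. VAV1, a guanine nucleotide exchange factor of blood cells, had 160 and 545 reads and differences of -0.47 and -0.54. CDC42EP3, an effector of CDC42, had 111 and 556 reads and differences of -0.01 and -1.10, or 0.32 and -0.79 with the 5 Mb median removed. The most accessible member of the list, in an intron of RHOH, lay only just below both medians, at -0.04 and -0.05. The member nearest ASAP1 was at -0.37 and 0.82. The median differences of that list were -0.27 and -0.52, and 0.03 and -0.26 once the 5 Mb median was removed, as 3 of its members lie on chromosome 2.

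Lysosome and lipid genes had 9 members near 6 of 20 genes, with 4 below both medians and 1 above. ABCA1, a cholesterol exporter, had 46 and 167 reads and differences of -0.84 and -0.63, on chromosome 9, and -0.29 in the first table once the 5 Mb median was removed. LAMP2, a lysosomal membrane protein, had 65 and 241 reads and differences of -0.28 and -0.66. The member near CTSD was at -0.45 and -0.37. Those near PSAP, which had the most accessible member of the list, were mixed. They stood at -0.54 and -0.06, 0.01 and -0.22, -0.38 and 0.18, and 0.34 and 0.40. Mitochondrial homeostasis is a theme of the series title. Among members near genes of that list, BAK1, a pore-forming protein of apoptosis, had differences of 0.39 and -0.35, and BCL2, which blocks apoptosis, 0.31 and 0.12, or 0.20 and 0.09 with the 5 Mb median removed. Chromatin enzymes had 5 members near 3 of 31 genes, 2 below both medians and 2 above, and blast receptors had 5 members, all near KIT, which 2 lists hold, or CXCR4. The counts are small, and no list was tested.

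**Figure D5:**
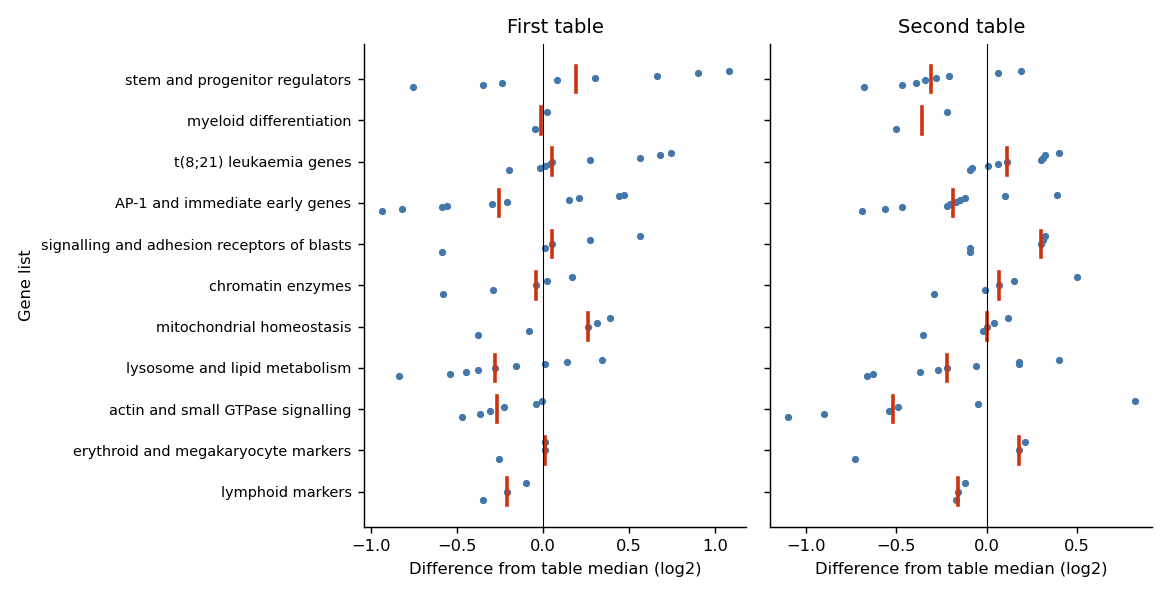
Each point is a member nearest a gene of the list on the y axis, placed by its difference from the table median (x, log2) in the first (left) and second (right) table; red bars are list medians. Points of most lists lie on both sides of 0, while the 3 members of the lymphoid markers lie just below it in both tables.

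Genes that mark other blood lineages had few members, as did the myeloid differentiation list, with 2 members near 2 of 26 genes. Among erythroid and megakaryocyte markers, ANK1 alone had members, 3 of them, with differences of -0.26 to 0.01 and -0.73 to 0.21. Among lymphoid markers, CD5, CD3E and RAG2 had 1 each, all below both medians, by 0.35 or less. As a check of the cell line on the first table, 4 of 7 myeloid progenitor markers had a promoter peak (CD34, KIT, SPI1 and CEBPA, at mean levels of 77.7 to 1113 normalised reads), 2 of 6 erythroid and megakaryocyte markers (KLF1 and ITGA2B, 99.7 to 247) and 3 of 6 lymphoid markers (CD3D, CD79A and EBF1, 34.3 to 90.5).

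For 887 members the nearest gene also had a promoter peak in both tables. Where that promoter lay below the first-table median the members' median difference was -0.11, and where it lay above it was -0.04. In the second table the same medians were -0.12 and -0.03. With the 5 Mb median removed from both, they were -0.07 and -0.07 in the first table and -0.10 and -0.09 in the second. Across these members and their promoters Pearson's r was 0.12 and 0.21 for the first and second table, and 0.03 and 0.00 with the 5 Mb median removed. These are descriptions across peaks, which share their libraries and their region.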

How the data were processed

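ATAC-seq was made from 4 Kasumi-1 libraries, 2 sgNT and 2 SETD8 knockout, grouped by their titles. Per the submitters' processing notes, MACS2 2.1.2, ChIPseeker, Bowtie2, SAMtools, cutadapt and deepTools were used with hg38; no source used here gives their roles, the read shifting or the scaling. The authors deposited log2 levels, log2 fold changes, p-values and adjusted p-values per peak in 2 tables. Per the file headers the second table compares the replicate 2 libraries, while the first names no library, its columns were identified by order and range, and its direction was read from the name of the table. Its 2 further per-library columns were not used. In the second table the deposited log2 levels gave whole reads for 100% of the 361 knockout and 100% of the 170 control values checked (within 0.0055 on the log2 scale), the latter after division by 0.918; control reads are printed as deposited.

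Peaks were joined by reciprocal overlap and fold changes were centred on the median of all peaks of their table, or on the other peaks of 5 Mb bins. Reads could be recovered for replicate 2 only, so the groups were not compared by a count test and the authors' p-values are given. Named members were the 10 lowest and 10 highest by the smaller of both centred values with at least the median level, the 6 strongest, the 3 most discordant each way, up to 4 genes per list, members of KMT5A, RUNX1 and RUNX1T1, and the 6 genes with most members. 1 gene that the rule named is not reported here. Members and lists were chosen with earlier results of these data known. Symbols matched RefSeq (GRCh38.p14) for 2000 of 2003 members. The join and centring were tested on simulated data. Python 3.11.15, numpy 2.4.6, pandas 2.3.3, scipy 1.17.1 and matplotlib 3.10.9 were used.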

Additional observations from a re-analysis of the deposited data

How the results depend on the processing

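The members' median log2 fold change in the first table was -0.96 with an overlap of 70% and -0.90 without chromosomes 2, 8, 9 and 17, and in the second -1.32 with an overlap of 70% and -1.37 among the 450 members at or above the median level of all peaks of both tables. As deposited, 1921 members were below 0 in both tables and 0 above, and with 1 table left out 1105 to 1134 lay below and 844 to 873 above its median, as 1 condition replaces 2. Members lower in the first table numbered 1550 past a smaller fold, 215 past 1.5 and 213 with that level filter, and those higher 11, 0 and 0. In the second, 562 were lower past 1.5 and 412 with the filter; fewer pass by construction. At an unadjusted p under 0.05 the first table gave 21. The other counts for whole sets stayed within 1.5 times of the reported ones, the furthest being 328 above both against 448 with an overlap of 70% and 514 below both against 702 without the 4 chromosomes, and all 78 values of the 20 named lowest and highest members kept their side of the median. No paired analysis was possible because the first table names no library and the labels number only replicate 2. At a median of 78.2 knockout reads, differences under about 0.38 at a single member were not detectable in the second table.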
